A study of Canis lupus familiaris with 10 samples.

Results

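The expression of 6 genes of macrophages and other leukocytes was followed in canine visceral adipose tissue (VAT): CSF1R, LYZ, C1QB, TLR7, BLNK and DOCK2. They were taken by name, 6 of the 19856 Ensembl genes counted in each library, and all 6 are in the table of differentially expressed genes (DEGs) that the study drew from these same samples, so their change with treatment is what brought them together and is described here without a test. Adult Beagles, of which 3 were male and 2 female, underwent laparotomy for VAT sampling at week 0, untreated (Pre-ACTH), and at week 25 of treatment with tetracosactide (Post-ACTH), a synthetic ACTH analog that makes the adrenal cortex release cortisol. It was delivered by subcutaneous osmotic pumps, which were changed at intervals of 4 weeks, with a daily dose that began at 1.3 to 1.95 μg/kg and ended at 6 to 10 μg/kg. No dog gave both samples without treatment, so the effects of treatment, of time and of the first laparotomy cannot be told apart. Numbers 1 to 5 follow the animal IDs, and dogs 2 and 3 are the females.

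Macrophages are the most abundant leukocytes of healthy fat, where they clear dying adipocytes and buffer released lipid. Their survival depends on CSF1R, the receptor tyrosine kinase for the growth factors CSF1 and IL34. They secrete lysozyme, which cuts bacterial cell walls and is encoded by LYZ, and the subunits of C1q, the recognition molecule of the classical complement pathway, one chain of which is encoded by C1QB. TLR7 is an endosomal receptor for single-stranded RNA, BLNK an adaptor that links the kinases SYK and BTK to phospholipase C gamma in B cells and macrophages, and DOCK2 a haematopoietic exchange factor that activates RAC proteins for migration. Glucocorticoids are known to restrain inflammatory signaling in these cells and to favor the clearance of dead cells.

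The libraries held 8728330 to 14867529 counted reads, the fewest in the Pre-ACTH sample of dog 3. Normalized counts are counts divided by the library size after edgeR's trimmed mean of M values (TMM) scaling and multiplied by the mean library size. They compare samples for one gene and do not compare genes, since transcript length is not taken into account. Genes were tested if any sample held 10 reads or more, and over these 13577 genes the median log2 fold change was 0.00, which TMM scaling brings close to 0 by construction. All 6 genes passed this filter. The sequences of these genes are not shown.

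Of the 6 genes, 5 were lower in Post-ACTH and C1QB was higher. The log2 fold changes of the 5 lower genes ran from -3.20 in TLR7 to -0.75 in CSF1R, and that of C1QB was 1.00. LYZ, TLR7, BLNK and DOCK2 were lower in all 5 dogs, as were 13.5% of all tested genes and 54.4% of the genes in the study's DEG table. C1QB was higher in all 5 dogs, as were 13.4% of tested genes and 38.7% of the table. CSF1R was lower in 4 dogs and slightly higher in dog 5. The groups of samples did not overlap for LYZ, TLR7 and BLNK, a separation toward lower values that 4.74% of all tested genes showed (4.3% toward higher values, and 57.1% of the table in either direction), and they overlapped for CSF1R, C1QB and DOCK2. Nothing is read from these shares, because the genes were chosen for this contrast. In bulk tissue, fewer cells of a type and less RNA per cell cannot be told apart.

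**Figure D1:**
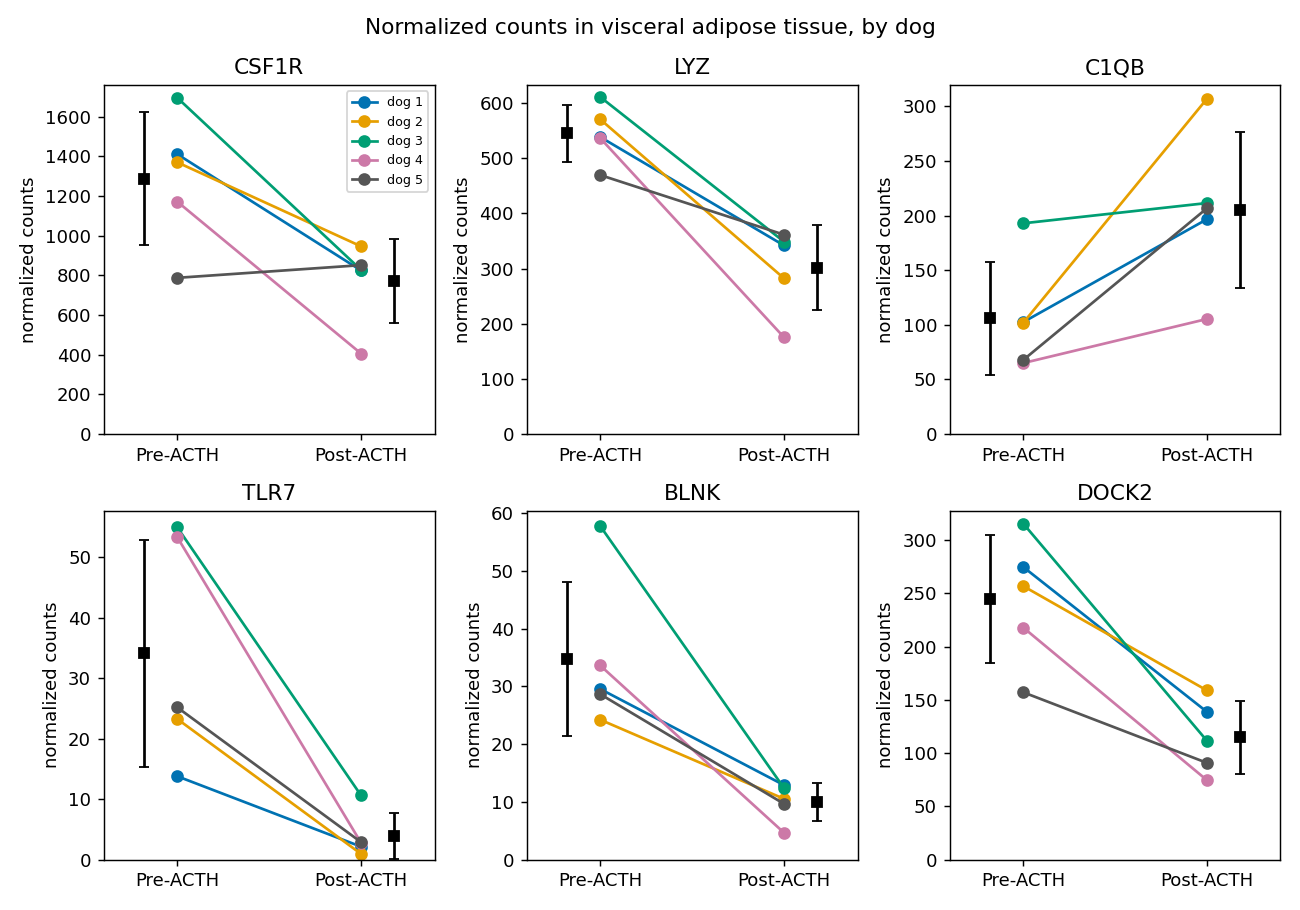
Normalized counts (vertical axes, linear and from 0) of the 6 genes in Pre-ACTH and Post-ACTH samples, with a line per dog. Black squares and bars give the mean and SD of 5 dogs. All lines fall except those of C1QB, which rise, and the line of dog 5 for CSF1R, from 787 to 851.

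CSF1R (ENSCAFG00000018219) had 1411, 1370.0, 1696, 1172 and 787 normalized counts in the Pre-ACTH samples of dogs 1 to 5. In Post-ACTH the same dogs had 824, 946, 827, 405 and 851. The groups overlapped because dog 5 began below 4 of the Post-ACTH samples, and dog 4 ended far below all other samples. The mean was 1287 ± 336 before and 771 ± 210 after treatment (SD, n = 5), and the fitted log2 fold change was -0.75 (SE 0.21). Single dogs lay between a log2 ratio of -1.53 (dog 4) and 0.11 (dog 5). With 435 to 1433 reads per library, the counting error of a single ratio was 0.06 to 0.08 on the log2 scale, well under the SD of 0.61 between dogs.

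LYZ (ENSCAFG00000000426) was the most even of the 6 genes before treatment, with 539, 571, 611, 537 and 469.5 normalized counts in dogs 1 to 5. Post-ACTH values were 342, 282, 349, 175 and 361, so that every Post-ACTH sample lay below every Pre-ACTH sample. The coefficient of variation between dogs was 9.55% in Pre-ACTH and 25.5% in Post-ACTH, where dog 4 was the lowest. The mean went from 545 ± 52.1 to 302 ± 77.1 (SD, n = 5), and the fitted log2 fold change was -0.89 (SE 0.17), with single dogs between -1.60 and -0.38.

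C1QB (ENSCAFG00000032344) moved against the rest. Its Pre-ACTH values were 102, 102, 193, 64.9 and 67.7 normalized counts in dogs 1 to 5, and its Post-ACTH values 197, 307, 211.5, 105 and 207. Dog 3 was high before treatment and gained little, and dog 4 was the lowest at both times, which made the groups overlap although every dog was higher in Post-ACTH. The mean was 106 ± 51.8 in Pre-ACTH and 205 ± 71.5 in Post-ACTH (SD, n = 5), a 1.94-fold higher mean, with a fitted log2 fold change of 1.00 (SE 0.23). The reads numbered 480 in the 5 Pre-ACTH libraries and 1070 in the 5 Post-ACTH libraries. By counting error alone, the ratio in dog 3 was 1.10 (exact 95% interval 0.885 to 1.36), the only one of the 5 whose interval included equality, and the highest was 3.05 (2.35 to 4.01) in dog 5. Such intervals cover counting error only, since the reads carry no molecular identifiers.

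TLR7 (ENSCAFG00000011698) had the fewest reads and the largest change. The Pre-ACTH libraries of dogs 1 to 5 held 14, 24, 39, 46 and 29 reads of it, and the Post-ACTH libraries 2, 1, 12, 3 and 3. In normalized counts these were 13.8, 23.3, 54.9, 53.3 and 25.2 before and 2.15, 0.957, 10.6, 2.80 and 2.90 after treatment. The groups did not touch, but the highest Post-ACTH value, in dog 3, came near the lowest Pre-ACTH value, in dog 1. The mean went from 34.1 ± 18.8 to 3.88 ± 3.84 (SD, n = 5), and the fitted log2 fold change was -3.20 (SE 0.42).

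The size of the TLR7 change is imprecise in single dogs. Post-ACTH was 15.6% of Pre-ACTH in dog 1, with an exact 95% counting interval of 1.72% to 67.9%, and 4.11% in dog 2, with an interval of 0.100% to 25.2%. For dogs 3, 4 and 5 the shares were 19.3% (9.22% to 37.7%), 5.24% (1.04% to 16.3%) and 11.5% (2.24% to 37.2%). All 5 intervals lay below equality and all overlapped, so the order of the dogs in the size of this change is not resolved. The mean log2 ratio of the single dogs was -2.64 with the prior count of 2 that was added to each value, and -3.33 with a prior count close to 0.

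**Figure D2:**
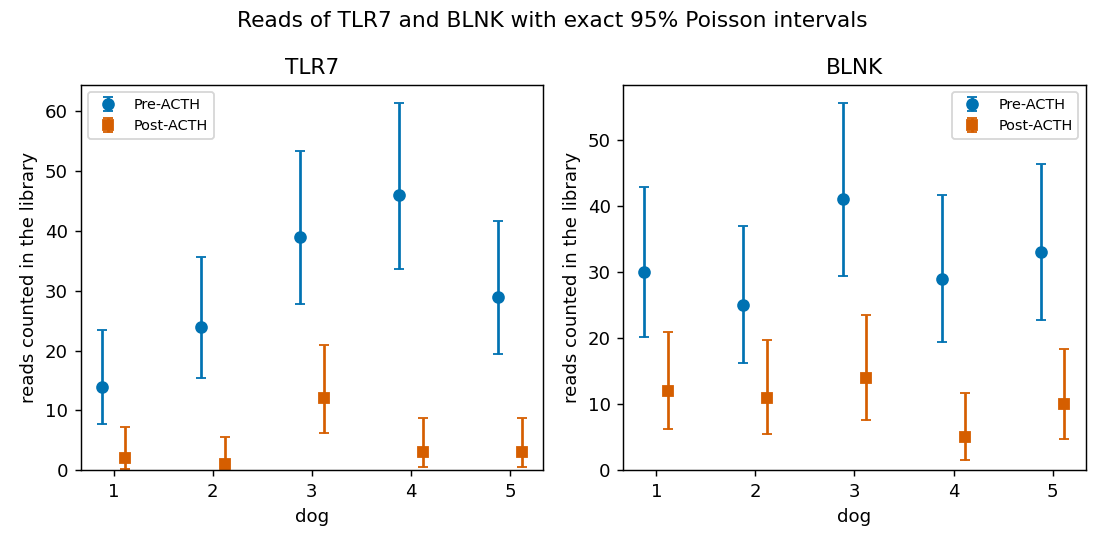
Reads of TLR7 (left) and BLNK (right) counted in each library (vertical axes) for dogs 1 to 5, with exact 95% Poisson intervals as bars. Pre-ACTH libraries (circles) held 14 to 46 reads of TLR7 and Post-ACTH libraries (squares) 1 to 12.

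BLNK (ENSCAFG00000008477) was nearly as sparse, with 30, 25, 41, 29 and 33 reads in the Pre-ACTH libraries of dogs 1 to 5 and 12, 11, 14, 5 and 10 in the Post-ACTH libraries. Normalized counts were 29.5, 24.2, 57.7, 33.6 and 28.6 before and 12.9, 10.5, 12.4, 4.66 and 9.66 after treatment. The groups were apart, and dog 3 stood above the other Pre-ACTH samples. The mean went from 34.7 ± 13.3 to 10.0 ± 3.28 (SD, n = 5), and the fitted log2 fold change was -1.76 (SE 0.33). Single dogs lay between -2.42 in dog 4 and -1.07 in dog 2, and the counting error of these ratios was 0.45 to 0.70 on the log2 scale, beside an SD of 0.61 between dogs.

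DOCK2 (ENSCAFG00000016982) had 275, 257, 315, 218 and 157 normalized counts in dogs 1 to 5 in Pre-ACTH and 139, 159, 111.5, 74.5 and 90.8 in Post-ACTH. The groups met only through the Post-ACTH sample of dog 2 and the Pre-ACTH sample of dog 5. The mean went from 244 ± 60.1 to 115 ± 34.3 (SD, n = 5), and the fitted log2 fold change was -1.10 (SE 0.16). The SD of the single ratios, 0.39, was the smallest among the 6 genes, and they ran from -1.52 to -0.69.

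**Figure D3:**
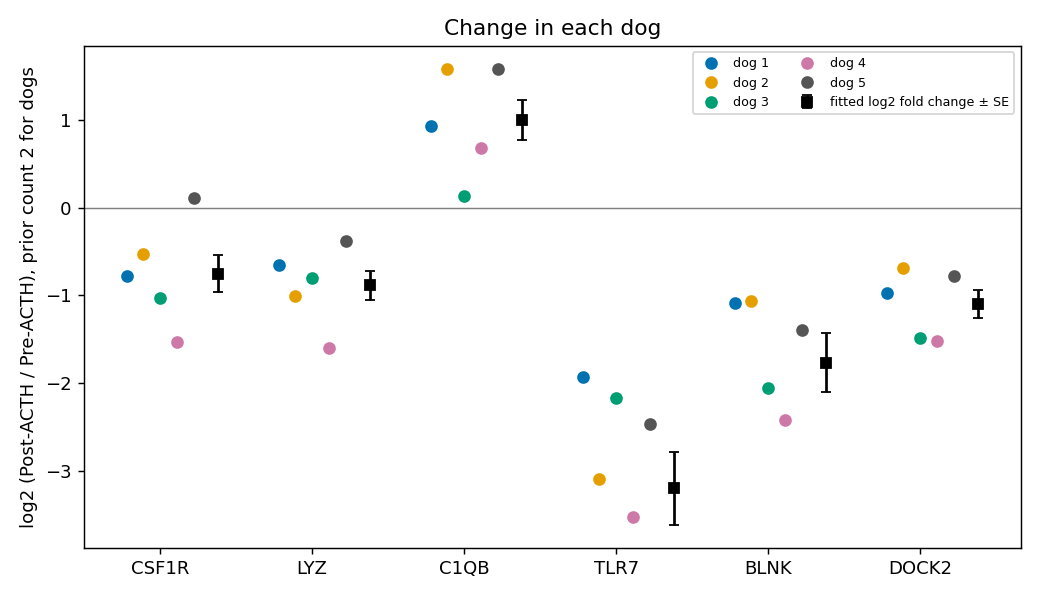
Log2 ratio of Post-ACTH to Pre-ACTH (vertical axis, prior count of 2) of each dog for the 6 genes, with the fitted log2 fold change and its SE as black squares and bars. The points of C1QB lie above 0, and with this prior count dog 4 is the lowest for the other 5 genes.

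Post-ACTH was 34.6% of Pre-ACTH for CSF1R and 32.7% for LYZ in dog 4, and for both genes the exact 95% counting interval of this dog lay below those of the other 4. For BLNK and DOCK2 dog 4 was again the lowest, with intervals that overlapped those of other dogs. For TLR7 it was the lowest with the prior count of 2 and dog 2 was without it. In dog 4 the C1QB ratio of 0.68 on the log2 scale was also below the mean of 0.98 ± 0.62 (SD, n = 5). Dog 5 had the highest ratio of CSF1R and of LYZ. Without dog 4 the fitted log2 fold change of CSF1R was -0.56 and that of LYZ -0.71.

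The sexes gave similar averages. The mean log2 ratio of C1QB was 1.06 in the 3 males and 0.85 in the 2 females, and those of DOCK2 were -1.09 in both. The difference of the response between the sexes was tested by edgeR's quasi-likelihood test in a model with a separate treatment effect for females. The choice of the genes did not use this difference directly, but a paired fit favors genes whose change is even between dogs. For DOCK2 females minus males was 0.01 (95% interval -0.79 to 0.82), for LYZ -0.04 (-0.91 to 0.82), for CSF1R -0.06 (-1.14 to 1.03), for BLNK 0.07 (-1.60 to 1.74), for C1QB -0.23 (-1.41 to 0.94) and for TLR7 0.41 (-1.73 to 2.55), all with adjusted p = 1.0. For CSF1R, LYZ and C1QB the intervals hold differences as large as the change itself. Of all tested genes 0 passed a false discovery rate (FDR) of 0.01 in this test, a share of 0%, and 435 (3.2%) had an unadjusted p under 0.05.

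The second measure that the choice did not use directly was whether dogs differed from each other across both times. The study's fit also blocked by animal, so the choice and this test share the spread left after dog and treatment. In edgeR's joint test of the dog terms, 5 of the 13577 genes passed FDR under 0.01, a share of 0.0368%, and none of the 6 genes did. Their adjusted p ran from 0.330 in TLR7 to 0.704 in BLNK. At an unadjusted p under 0.05 stood C1QB, TLR7 and DOCK2, 3 of 6, beside 14.1% of all tested genes. The share over the study's DEG table was not counted, so nothing is read from this. For DOCK2 all 5 dogs were on the same side of the group mean at both times, for CSF1R, C1QB and TLR7 4 dogs were, for LYZ 2 and for BLNK 1. Over all tested genes, deviations at the 2 times also correlated within each dog, by 0.077 (dog 4) to 0.41 (dog 2). The share of all tested genes with such counts was not determined, and differences between the genes in these counts were not tested.

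Within the groups, C1QB varied with CSF1R and DOCK2, which it opposed across treatment. For each gene, the mean of its group was taken off the log2 CPM (counts scaled to a fixed library size) of each sample, which removes the treatment contrast, and the remaining deviations were correlated over the 10 samples. These are 5 dogs with a pair of samples each, not independent samples, so the coefficients describe the libraries and carry no p. Deviations of C1QB had Pearson r = 0.87 with CSF1R (Spearman rho 0.94) and r = 0.83 with DOCK2 (rho 0.67). The value for C1QB and CSF1R stayed between 0.86 and 0.89 with any 1 dog left out, and it exceeded the r of C1QB with 99.6% of all tested genes. CSF1R and DOCK2 had r = 0.87 (rho 0.73), CSF1R and LYZ 0.83 (rho 0.54), and the latter dropped to 0.55 without dog 4. C1QB had r = 0.74 with BLNK, and 0.63 with LYZ, which was 0.30 without dog 4. Over all tested genes the median r with C1QB was -0.01.

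TLR7 stood apart from this pattern. Its deviations had r = 0.06 with CSF1R, 0.03 with C1QB, -0.11 with DOCK2 and 0.26 with LYZ. The highest value was 0.44 with BLNK. These values depended on dog 3. Without that dog r was -0.32 with CSF1R, -0.62 with C1QB, -0.48 with DOCK2, -0.06 with LYZ and -0.01 with BLNK. TLR7's Post-ACTH values rest on 1 to 12 reads per library, so a weak correlation at this depth says little about the gene. Of the 15 pairs among the 6 genes, 14 had r above 0 and 10 had r above 0.5, and none of the latter included TLR7. Over all tested genes, the 95th percentile of r with a member ran from 0.62 (LYZ) to 0.67 (TLR7). The share of all pairs of tested genes with r above 0.5 was not counted. Of these 10 pairs, 5 were under 0.5 without dog 4. They were LYZ with DOCK2 (0.15), with C1QB (0.30) and with BLNK (0.42), and BLNK with CSF1R and with DOCK2 (0.45 each).

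**Figure D4:**
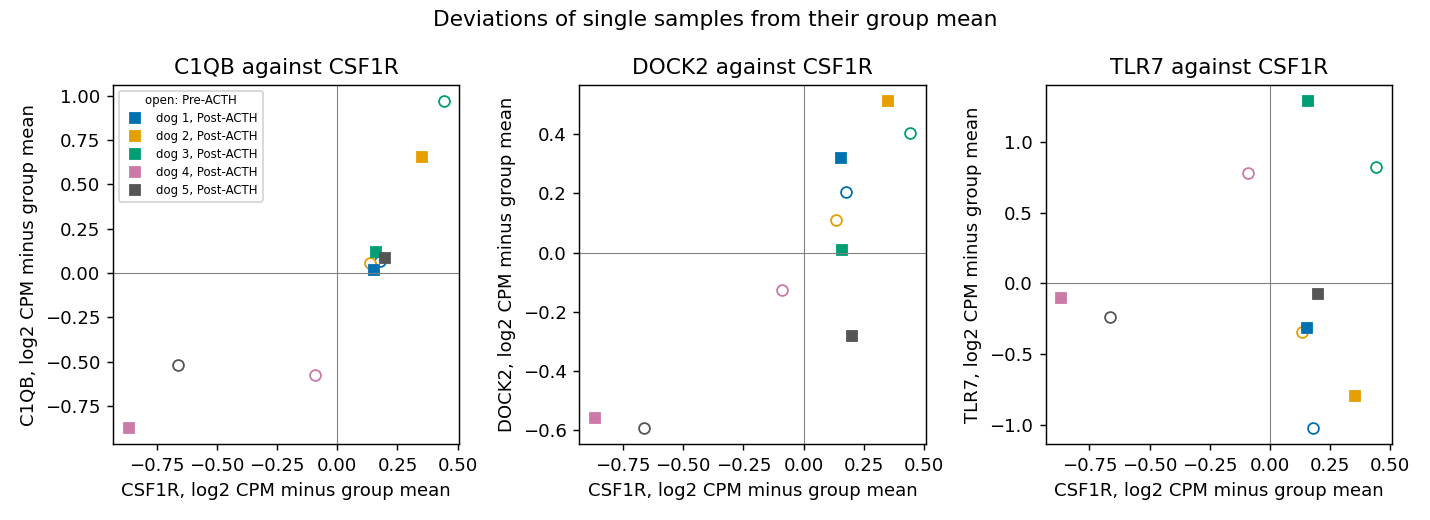
Deviations of log2 CPM from the group mean in the 10 samples, for C1QB (left), DOCK2 (middle) and TLR7 (right) on the vertical axes against CSF1R on the horizontal axes. Open circles are Pre-ACTH and filled squares Post-ACTH samples, with a color per dog. C1QB and DOCK2 rise with CSF1R (r = 0.87 for both), while TLR7 does not (r = 0.06).

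The genes most like each member were sought among those with a symbol and a mean of at least 50 normalized counts, which are all DEGs of the study. By deviations from the group means over the 10 samples, C1QB was most like CORO1A (r = 0.98), an actin-binding coronin of leukocytes, followed by COL23A1 (0.93), a transmembrane collagen, and VAV1 (0.92), an exchange factor of haematopoietic cells. All 3 were lower in Post-ACTH, with log2 fold changes of -0.89, -1.25 and -1.02, while C1QB was higher. DOCK2 was most like Nox2 (0.94), the table's symbol for the phagocyte oxidase subunit, VAV1 (0.91) and CORO1A (0.90). BLNK was most like ANGPTL1 (0.96), ADAMTS18 (0.95) and PTPRC (0.93), which encodes the leukocyte surface phosphatase CD45. CSF1R was most like the oxidase NOX4 (0.95), the transporter SLC37A2 (0.94) and the actin bundler FSCN1 (0.92). LYZ was most like GNG11 (0.95), CDC42BPA (0.91) and ANKRD50 (0.91), and TLR7 like ZNF436 (0.86), GEM (0.82) and MDFIC (0.79).

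With the treatment contrast left in, likeness mostly follows the gap between the groups, and the coefficients are not given. The 3 genes most like C1QB were then C5AR1, SPSB1 and SSR4. C5AR1, the receptor for the complement fragment C5a, had 59.5 ± 27.6 normalized counts in Pre-ACTH and 124 ± 45.2 in Post-ACTH (SD, n = 5), with 4 of 5 dogs higher. SPSB1, an adaptor of ubiquitin ligases, had 409.7 ± 115 and 849 ± 153. For the other 5 genes the most alike were NOX4 for CSF1R, CDC42BPA for LYZ, MDFIC for TLR7, ADAMTS18 for BLNK and VAV1 for DOCK2.

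A set of 18 lists of genes around the 6 was set out, 7 of pathways and 11 of cell type markers, holding 293 genes without the 6. The count tables give Ensembl identifiers only, and symbols came from the study's DEG table, which names 1079 of its 1190 genes. Only 54 of the 293 genes were therefore matched by their list symbol, all of them chosen by the study for change on these samples. Neither their counts nor their directions are independent evidence. Of the 54, 48 had negative and 6 had positive log2 fold changes, beside 58.1% negative in the whole table. In edgeR's quasi-likelihood test, blocked by dog and with Benjamini-Hochberg adjustment over all tested genes, 12 fell and 0 rose at FDR under 0.01, where 1.97% of all tested genes (1.22% lower, 0.751% higher) and 22.4% of the table were called. With DESeq2 the counts were 47 and 6, beside 1180 of all 13577 tested genes. The study drew its table with DESeq2, paired by animal and at the same FDR, so these counts were given in advance. Without dog 2 or without dog 3, edgeR called 0 of the 54, without dog 4 it called 6 and without dog 5 it called 3.

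Among CSF1R's ligands and the regulators of myeloid cells, 3 of 22 genes were matched in the study's DEG table and none was called by edgeR. IRF8, a transcription factor of monocytes and dendritic cells, had the lowest p of the 3, with 4222 ± 500 normalized counts in Pre-ACTH and 2206 ± 752 in Post-ACTH (SD, n = 5, adjusted p = 0.0183 by edgeR). Of the 3 genes, 2 had negative values, and KLF4, a transcription factor of monocytes and other cells, was higher in all 5 dogs (log2 fold change 0.51, adjusted p = 0.0241 by edgeR). CSF1, IL34 and SPI1 were not analysed here. In the complement list, 8 of 25 genes were followed and 1 fell. It was CFP, which encodes properdin, a stabilizer of the alternative pathway, whose log2 fold change was -2.34 (SE 0.30, adjusted p = 0.00583 by edgeR). Its values in dogs 1 to 5 were 114, 155, 113, 46.4 and 59.0 before and 29.0, 26.8, 14.2, 4.66 and 23.2 after treatment. The list's median was -0.99, and C5AR1 was its only member on the side of C1QB, with an adjusted p of 0.0395 by edgeR. C1QA and C1QC, which encode the other chains of C1q and lie beside C1QB in RefSeq's dog annotation (assembly UU_Cfam_GSD_1.0), were not analysed here.

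For TLR7, 5 of 27 genes of the receptor family and its signaling were followed, with a median log2 fold change of -1.88. PIK3AP1, an adaptor between TLR and phosphoinositide kinase signaling, was the 1 called gene, from 62.0 ± 25.7 to 17.2 ± 8.29 normalized counts (SD, n = 5, log2 fold change -1.88, SE 0.22, adjusted p = 0.00481 by edgeR). UNC93B1, the chaperone that brings TLR7 to endosomes, had 439 ± 105 and 301 ± 36.8 (log2 fold change -0.52, SE 0.10, adjusted p = 0.0183 by edgeR). IRF5, a transcription factor downstream of TLR7, had 152 ± 59.6 and 69.6 ± 11.2 (log2 fold change -1.04, adjusted p = 0.0302 by edgeR). TLR8, TLR9 and MYD88 were not analysed here.

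Around BLNK, 3 of 24 genes were followed, all with negative values. PLCG2, the phospholipase C gamma that BLNK helps to activate, fell, with 216 ± 21.0 normalized counts before and 117 ± 25.2 after treatment (SD, n = 5, log2 fold change -0.90, SE 0.12, adjusted p = 0.00683 by edgeR). VAV1 had 82.7 ± 19.8 and 40.3 ± 7.44 (log2 fold change -1.02, adjusted p = 0.0160 by edgeR). SYK, BTK and ELMO1 were not analysed here. Around DOCK2, 10 of 22 partners and actin regulators of blood cells were followed, with a median of -0.91 and RAC2 the lowest. LCP1, the leukocyte actin bundler, was the 1 called, from 437 ± 196 to 180.1 ± 67.2 (SD, n = 5, log2 fold change -1.26, SE 0.19, adjusted p = 0.00988 by edgeR). RAC2, the RAC protein of blood cells that DOCK2 activates, had 43.6 ± 16.7 and 11.1 ± 6.41 (adjusted p = 0.0112 by edgeR). Of the other members of the DOCK family, 4 of 10 were followed and DOCK4 fell (log2 fold change -0.69, SE 0.10, adjusted p = 0.00952 by edgeR).

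In the list of lysosomal proteins, 3 of 26 genes were followed and none was called. GUSB, the lysosomal beta-glucuronidase, had the lowest p, with 2104 ± 277 normalized counts before and 3499 ± 766 after treatment (SD, n = 5, log2 fold change 0.72, adjusted p = 0.0107 by edgeR), and was higher in all 5 dogs. The other 2, the lipase LIPA (-0.69) and the glucosidase GAA (-0.51), were lower in all 5 dogs like LYZ, and the median of the 3 was -0.51.

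Of the markers of cell types, 7 of 16 pan-leukocyte genes were followed, all 7 with negative values and a median log2 fold change of -0.95. Their summed normalized counts spanned 1221 to 2141 before and 435 to 1034 after treatment, and the 1 called gene was LCP1. PTPRC had 273, 250.0, 499.9, 255 and 202 in dogs 1 to 5 before treatment and 177, 139, 144, 77.3 and 140.1 after it (log2 fold change -1.10, SE 0.22, adjusted p = 0.0212 by edgeR). Set against the median ratio of these 7 genes in the same dog, DOCK2 differed by -0.02 ± 0.26 on the log2 scale (SD, n = 5), LYZ by 0.18 ± 0.40 and CSF1R by 0.32 ± 0.35. BLNK lay below it in 5 of 5 dogs, by -0.53 ± 0.15, and TLR7 likewise, by -1.57 ± 0.66. C1QB lay above it in 5 of 5 dogs, by 2.05 ± 0.42. These positions carry no evidence, because the 7 genes and the 6 were all chosen for change in this contrast. The median ratio of the 7 was -0.62, -0.70, -1.56, -1.86 and -0.63 in dogs 1 to 5. A gene without change would thus also lie above it in 5 of 5 dogs. The share of all tested genes above or below it was not counted. The share of the leukocyte genes' decrease in the changes of the 6 genes was not tested.

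Of 25 macrophage markers, MERTK alone was matched by its list symbol. It is a receptor for the uptake of dying cells and was named after its values were seen. It had 1183 ± 359 normalized counts in Pre-ACTH and 1723 ± 236 in Post-ACTH (SD, n = 5), higher in all 5 dogs (log2 fold change 0.58, SE 0.12, adjusted p = 0.0249 by edgeR). Like C1QB it thus lay on the other side from CSF1R, and it did not pass FDR under 0.01. A second listed marker, CYBB, is in the DEG table as Nox2, was missed by the match and is not among the 54 genes. Nox2 went from 272 ± 94.1 to 162 ± 63.4 normalized counts (SD, n = 5). It was lower in all 5 dogs (log2 fold change -0.78, SE 0.19), on the side of CSF1R. CD68, CD163, MRC1 and AIF1 were not analysed here. Within the macrophage list, the label of macrophage genes could thus be checked against MERTK and Nox2 only, which moved in opposite directions. The complement list held other genes of myeloid cells, ITGAM and ITGAX, which encode integrin chains. Both were lower in all 5 dogs (log2 fold changes -0.88 and -2.25) and neither passed FDR under 0.01, while C5AR1 was higher in 4 of 5 dogs. Of the 12 dendritic cell markers, 2 were followed, and CD1D, a lipid-presenting molecule, fell (log2 fold change -3.09, SE 0.33, adjusted p = 0.00382 by edgeR). The other was ZBTB46, a transcription factor of classical dendritic cells, higher in all 5 dogs (log2 fold change 0.70, adjusted p = 0.0122 by edgeR). Their summed counts lay between 297 and 391 before and between 329 and 433 after treatment. Of 10 mast cell markers, 2 were followed. CPA3, the mast cell carboxypeptidase, was called lower (adjusted p = 0.00798 by edgeR). It had 71 reads over the Pre-ACTH libraries and 2 over the Post-ACTH libraries, with 0 in dogs 2, 4 and 5. It passed the filter of 10 reads through Pre-ACTH samples only, so its call is a description and not evidence of a fall. The summed counts of the 2 markers lay between 16.5 and 42.2 before and between 0 and 3.22 after treatment.

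Of the 12 fibroblast and progenitor markers, 10 were followed, their median log2 fold change was -1.52, and 5 fell. PI16, a marker of adipose progenitors, had the largest decrease (log2 fold change -3.30, SE 0.30, adjusted p = 0.00241 by edgeR), followed by COL3A1 (-2.37, SE 0.28, adjusted p = 0.00475). The summed counts of the 10 spanned 21816 to 47620 before and 7901 to 12764 after treatment. LIPE, the hormone-sensitive lipase and the only adipocyte marker of 15 matched in the DEG table, had 22355 ± 2352 and 31011 ± 2166 (log2 fold change 0.48, SE 0.11, adjusted p = 0.0313 by edgeR). ADIPOQ and PLIN1 were not analysed here. The fibroblast markers were thus lower like the 5 lower genes and opposite to C1QB, and the part of these cells in the results was not tested. No gene of the lists for T and NK cells, B and plasma cells, neutrophils, endothelium and mesothelium was matched by its list symbol in the study's DEG table. CD3E and CD79A were therefore not analysed here either. Whether such genes were not DEGs, or were DEGs under another name or none, was not resolved.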

How the data were processed

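Per the labels and the study's methods, RNA of 10 VAT samples was sequenced on an Illumina NovaSeq, reads were aligned with STAR to CanFam3.1, and the authors deposited the featureCounts read count of each Ensembl gene, unscaled, 1 table per sample. Versions, annotation release, strand setting and the treatment of multi-mapping reads are not given in the sources used here, so reads of overlapping genes may be shared. Symbols came from the identifier and name columns of the study's DEG table. Its fold changes and p-values were not used.

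Counts were fitted in R 4.3.3 with edgeR 4.0.16 (TMM, glmQLFit, glmQLFTest) with the dog as a block, as in the study's pairing by animal ID, on the 13577 genes that reached 10 reads in some sample. Benjamini-Hochberg adjustment was applied (FDR under 0.01). Deviations from the group means correlated between the 2 samples of a dog by 0.077 (dog 4) to 0.41 (dog 2). The SE was derived from the fold change and F statistic. Differences between dogs and between sexes used the same tool. For single-dog ratios a prior count of 2 was added before taking log2 CPM, and intervals were exact (SciPy 1.17.1). Per the study's methods, the libraries of all samples were prepared together to avoid batch effects. Whether the dogs of a group came from separate litters, or were sampled in batches, is not stated. The tests were tried on simulated data.

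The 6 genes, the lists and the tests were chosen with earlier results of these data known. Genes named besides the 6 are fixed partners of them, from each list up to 2 called genes in each direction (in a pathway list with none, that with the lowest p), and the 3 genes most like each member. MERTK, LIPE, KLF4, ZBTB46, LIPA, GAA, ITGAM and ITGAX were named after their values were seen, as was Nox2 as a macrophage marker. Alternatives were other scalings and filters, DESeq2 1.42.0, limma-voom (limma 3.58.1), no block, other prior counts, FDR under 0.05 and each dog left out.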

Additional observations from a re-analysis of the deposited data

Results flagged for a closer look

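Among 38 sets of 5 values (the normalized counts in each group and the log2 ratios of the 6 genes and of 6 fixed partners, and the library totals), 4 had a sample whose gap to the nearest other exceeded 0.71 of the range. Chance alone flags about 1 set in 20. In Post-ACTH, CSF1R had 405 normalized counts in dog 4 and 824 to 946 in the other dogs. TLR7 in Post-ACTH had 10.6 in dog 3, from 12 reads, and 0.957 to 2.90 in the others, from 1 to 3 reads. In Pre-ACTH, BLNK had 57.7 in dog 3 and 24.2 to 33.6 in the others, and PTPRC had 499.9 in dog 3 and 202 to 273 in the others. The Pre-ACTH library of dog 3 was also the smallest, with 8728330 reads.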

How the results depend on the processing

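The log2 fold changes of the 6 genes kept their sign and moved by less than the SD between dogs under all 13 alternative settings. Over these settings, each dog left out included, they ranged from -0.96 to -0.56 for CSF1R, -1.02 to -0.71 for LYZ, 0.84 to 1.23 for C1QB, -3.57 to -2.92 for TLR7, -1.92 to -1.55 for BLNK and -1.20 to -0.99 for DOCK2. The mean single-dog ratio of TLR7 was -2.64 with a prior count of 2 and -3.33 with a prior count close to 0.

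Counts of called genes depended on the setting. Of all tested genes 268 were called (102 higher, 166 lower). The count was 438 (172 and 266) without a filter, 1180 (499 and 681) with DESeq2, 1509 (657 and 852) at FDR under 0.05, 262 with no replicate block and between 1 and 318 with 1 dog left out (higher 1 to 116, lower 0 to 202): 1 without dog 2, 12 without dog 3, 117 without dog 4 and 23 without dog 5. Without dog 2, 2951 genes had an unadjusted p under 0.05. Differences between dogs were called for 5 genes, for 15 without a filter and for 1 to 8 with 1 dog left out. The sex difference stayed at 0 under the other scalings and filters. Of the 54 list genes, 0 were called higher and 12 lower. The counts were 2 and 19 without a filter and 6 and 47 with DESeq2, the method by which the study chose these genes. With 1 dog left out, between 0 and 12 were called lower. In the higher direction, limma-voom called 1, and the unpaired fit with no replicate block called 1. The causes were not tested. Depth limits TLR7 and BLNK most, with 21 and 52 reads over the Post-ACTH libraries.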
